A study of Mus musculus with 12 samples.

Results

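The genes described here are protein-coding genes that were expressed in STHdhQ111 cells and near 0 in STHdhQ7 cells, with or without inflammatory treatment. They were selected on their measured levels: a mean of at least 2 TPM in both STHdhQ111 groups and a mean below 0.1 TPM in both STHdhQ7 groups. TPM is a transcript level corrected for transcript length and library size, so it can be compared between genes. Of 29428 genes in the table, 17012 were annotated as protein-coding, and 26 genes were left after names starting with Col, Pcdh, Cdh, Hox, Sema, Wnt or H2- were set aside. Because the difference between the lines chose the genes, it is given below as a description and is not tested. Tests are given for the treatment effect within STHdhQ111 cells and for the genes that lie next to the 26.

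The study examined how an inflammatory challenge acts on cells carrying the Huntington's disease mutation. STHdhQ7/Q7 cells, labelled normal, and STHdhQ111/Q111 cells, labelled as the disease genotype, are immortal mouse striatal neuronal lines whose huntingtin protein carries 7 or 111 glutamines. Each line was either left nontreated (Q7-C, Q111-C) or exposed for 24 h to 5 µg/mL LPS with 100 ng/mL IFNγ (giving Q7-T and Q111-T), with 3 libraries in each of the 4 groups and poly(A) RNA sequenced in stranded libraries. Each genotype is represented by 1 cell line, so a difference of genotype and a difference between the lines cannot be told apart. The study calls the 3 libraries of a group biological replicates, without describing the cultures. As the labels do not say whether the libraries came from separate cultures, p-values measure only the spread between these libraries.

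A gene can be off in a cell because the activators of its promoter are missing or because its chromatin is closed, for example by methylation of CpG dinucleotides in a CpG-rich promoter or by Polycomb or zinc finger repressor complexes. Such states are passed on through cell divisions, and neighbouring genes in the same chromatin domain can share them. Several of the 26 genes are well known from other tissues: Acan encodes aggrecan of cartilage and of perineuronal nets in the brain, Zic1 is a transcription factor of the developing nervous system, and Cgas and Aim2 encode sensors of DNA in the cytosol.

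The promoters of the 5 genes called between Q111-T and Q111-C in the fit of all 12 libraries or in that of the 6 STHdhQ111 libraries (both described below) are shown because they differ widely in CpG content. Each spans 250 bases before to 50 bases after the start annotated by RefSeq on GRCm38.p6, written 5′ to 3′ on the strand of the gene, and capitals mark CpG dinucleotides. Bnc1 lies at chr7:81992250-81992549 (minus strand), Acan at chr7:79052976-79053275 (plus), Cgas at chr9:78443188-78443487 (minus), Ptgfr at chr3:151837479-151837778 (minus) and Itih2 at chr2:10130634-10130933 (minus).
Bnc1: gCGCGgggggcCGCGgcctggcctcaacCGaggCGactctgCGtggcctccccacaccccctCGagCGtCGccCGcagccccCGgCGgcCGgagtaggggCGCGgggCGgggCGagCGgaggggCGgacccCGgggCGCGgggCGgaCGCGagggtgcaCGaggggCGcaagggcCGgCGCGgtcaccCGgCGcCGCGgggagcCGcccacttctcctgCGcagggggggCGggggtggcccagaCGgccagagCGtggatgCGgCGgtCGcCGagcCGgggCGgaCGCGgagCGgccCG
Acan: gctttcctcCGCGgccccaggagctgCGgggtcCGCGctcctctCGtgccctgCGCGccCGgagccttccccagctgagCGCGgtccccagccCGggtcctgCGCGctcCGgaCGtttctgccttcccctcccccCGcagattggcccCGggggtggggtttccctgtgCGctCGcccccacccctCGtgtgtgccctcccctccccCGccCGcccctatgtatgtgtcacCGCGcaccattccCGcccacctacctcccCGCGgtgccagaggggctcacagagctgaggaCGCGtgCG
Cgas: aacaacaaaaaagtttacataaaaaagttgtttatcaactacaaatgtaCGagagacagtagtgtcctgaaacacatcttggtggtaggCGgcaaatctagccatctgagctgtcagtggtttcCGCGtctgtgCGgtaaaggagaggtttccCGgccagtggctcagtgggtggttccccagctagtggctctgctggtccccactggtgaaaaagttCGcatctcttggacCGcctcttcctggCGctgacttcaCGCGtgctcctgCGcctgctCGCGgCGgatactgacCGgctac
Ptgfr: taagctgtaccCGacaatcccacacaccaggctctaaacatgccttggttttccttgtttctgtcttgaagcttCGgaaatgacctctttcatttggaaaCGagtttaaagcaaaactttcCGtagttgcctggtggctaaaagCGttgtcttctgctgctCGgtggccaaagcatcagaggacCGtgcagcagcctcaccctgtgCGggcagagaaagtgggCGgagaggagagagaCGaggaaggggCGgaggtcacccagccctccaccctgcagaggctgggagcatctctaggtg
Itih2: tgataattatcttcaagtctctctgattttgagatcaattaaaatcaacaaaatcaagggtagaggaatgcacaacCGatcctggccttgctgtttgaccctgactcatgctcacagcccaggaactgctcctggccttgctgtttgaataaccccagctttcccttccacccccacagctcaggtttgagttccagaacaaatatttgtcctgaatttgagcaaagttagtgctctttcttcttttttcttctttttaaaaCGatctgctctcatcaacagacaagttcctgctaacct

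The Bnc1 promoter held 50 CpG dinucleotides and 83.3% G or C. That of Acan held 31, that of Cgas 16, that of Ptgfr 11 and that of Itih2 only 2, with 42.3% G or C. RefSeq promoters could be matched for 20 of the 26 genes. Their median was 20 CpG dinucleotides and 61.3% G or C, against 20 and 60.7% over 12833 promoters of the protein-coding genes tested. At least 16 CpG dinucleotides were found in 12 of the 20 (60%) and in 64.2% of all these promoters. The GC box (GGGCGG, which contains a CpG) was in 15 of 20 promoters (75%) and in 62.1% of all. The interferon-γ activated site (TTCNNNGAA) was in the promoters of Fam83g and Armcx6 (10%, against 6.86%), and the AP-1 site (TGANTCA) in those of Itih2 and Srpx2 (10%, against 5.41%). The letters of the interferon-stimulated response element (GAAA, any 2 bases, GAAA) and of the TATA box (TATAAA) were found in 3.10% and 7.32% of all promoters and in none of the 20. Motifs were searched on both strands, and a match describes the letters in the window only. The 20 promoters ranged from CpG-poor (Itih2 and Srpx2) to CpG-rich (Bnc1, Adgrg6 with 38 and Tcfl5 with 35).

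**Figure D1:**
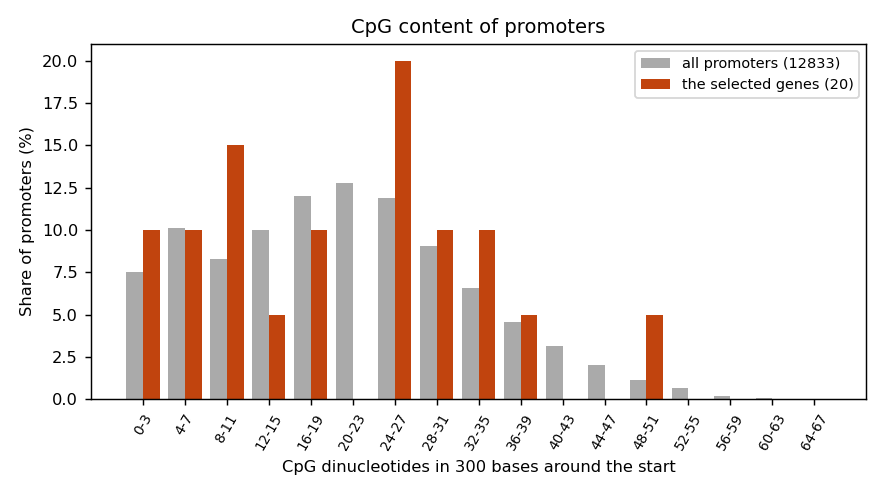
Share of promoters (%) by the number of CpG dinucleotides in 300 bases, for all 12833 promoters of the protein-coding genes tested (grey) and for the 20 promoters matched to the selected genes (orange). The 20 promoters spread from the lowest class to 50 CpG dinucleotides, and the medians were both 20.

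Before the individual genes, the libraries need a short description. Estimated counts summed to between 57505990 and 96417834 per library. Library Q7-T replicate 2 was nearer to Q7-C replicate 1 than to the other Q7-T libraries, and the main counts of the 26 genes and their neighbours in which it takes part are also given without it. Htt, whose allele defines the lines, was at 1.43 to 5.11 TPM in the 6 STHdhQ7 libraries and at 1.10 to 2.48 TPM in the 6 STHdhQ111 libraries, and the table does not separate its alleles. Of 9 neuronal markers, 2 (Map2 and Tubb3) were high enough to be tested, while Snap25 and Syt1 reached at most 0.0168 and 0.0250 TPM in any library. The 9 summed to 8.73 to 11.01 TPM in the Q111-C libraries and 29.3 to 32.8 TPM in the Q111-T libraries, against 22.3 to 27.6 TPM in Q7-C and 58.5 to 86.4 TPM in Q7-T. Of 8 mesenchymal markers tested, 5 were called higher and 2 lower in Q111-C vs. Q7-C (median log2 fold change 1.63), and the list summed to 1282 to 1387 TPM in the Q111-C libraries, against 2002 to 2271 TPM in the Q7-C libraries. In Q111-T vs. Q111-C, 1 of the 8 was called higher and 4 lower (median -1.23), with sums of 368 to 481 TPM in the Q111-T and 1639 to 1867 TPM in the Q7-T libraries. The part of this shift in the treatment differences below was not tested. Of 6 neural progenitor markers tested, 4 were called lower in Q111-C vs. Q7-C and none higher (median -2.25), and none was called in Q111-T vs. Q111-C (median -0.35). That list summed to 2410 to 2525 TPM in Q111-C and 2412 to 2780 TPM in Q7-C. In treated cells the sums were 1162 to 1225 TPM in Q111-T and 1755 to 2078 TPM in Q7-T.

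In STHdhQ7 cells the 26 genes were at the edge of detection. From the spacing of low values, 1 read pair stands for about 4 estimated counts, and 12 counts (3 read pairs) were taken as the floor. 4930452B06Rik and Gm20521 had 0 counts in all 6 STHdhQ7 libraries, and 7 genes, these 2 included, did not pass the floor in any of them. The other 19 passed it in at least 1 STHdhQ7 library, St6galnac2 in all 6, and the highest count was 55 for Adgrg6. Without Q7-T replicate 2, 10 genes did not pass the floor in any of the 5 STHdhQ7 libraries left and 16 passed it. The lowest count in a STHdhQ111 library among 25 of the genes, Gm20521 left aside, was 205 for Armcx6. Summed over these 25 genes, the level was 0.668 to 1.63 TPM in the STHdhQ7 libraries and 118 to 161 TPM in the STHdhQ111 libraries, so that the STHdhQ7 mean was 0.781% of the STHdhQ111 mean. The value of 1.63 TPM was that of Q7-T replicate 2, without which the highest was 1.32 TPM and the share 0.718%. In bulk RNA, fewer cells expressing a gene and less RNA per cell cannot be told apart. For 11 of these 25 genes no Q7-C library passed the floor. Against a floor of 12 counts per library, the level in Q111-C exceeded that in Q7-C at least 80.6-fold for Fam83g, at least 70.6-fold for Kctd12b and at least 66.2-fold for Srpx2, and the lowest of the 11 bounds was at least 25.6-fold for Calcrl. In treated cells 9 of the 25 had such a bound, which was at least 54.2-fold for Kcnk5 and at least 53.7-fold for 4930452B06Rik, the highest of them, and at least 16.3-fold for Armcx6, the lowest. Without Q7-T replicate 2 there were 13 such bounds, from at least 20.1-fold for Armcx6 to at least 66.5-fold for Kcnk5. These floors and bounds cover counting error only.

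**Figure D2:**
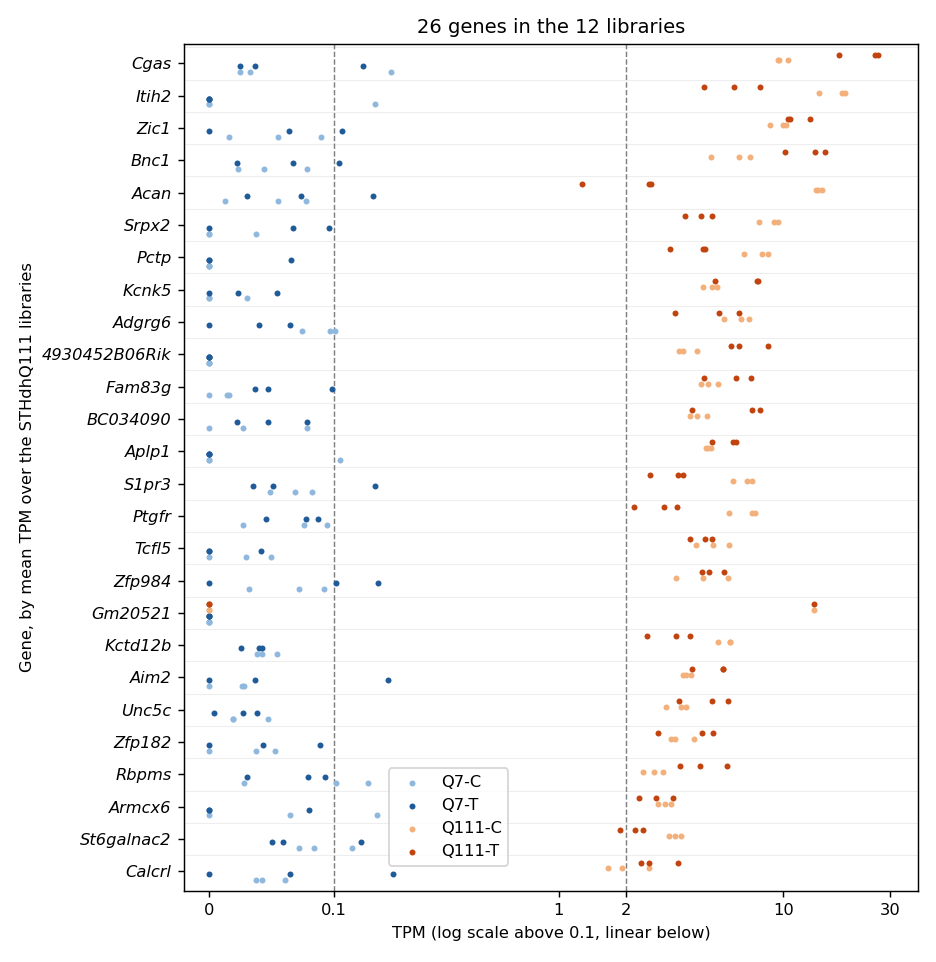
TPM of the 26 genes (rows, ordered by their mean over the STHdhQ111 libraries) in each of the 12 libraries (points, coloured by group), with dashed lines at the 2 thresholds of 0.1 and 2 TPM. All STHdhQ111 points of 25 genes lie above 1 TPM and all STHdhQ7 points below 0.2 TPM, whereas Gm20521 is at 0 in 4 of the 6 STHdhQ111 libraries.

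The genes included a pair of DNA sensors. Cgas (chr9:78430526-78443237 on GRCm38, minus strand), which makes the messenger cGAMP when it meets DNA in the cytosol, was at 9.46, 9.54 and 10.5 TPM in the Q111-C libraries and at 25.7, 17.7 and 26.4 TPM in the Q111-T libraries. Its highest level in STHdhQ7 cells was 0.179 TPM, in Q7-C replicate 2. Aim2 (chr1:173350879-173466040, plus strand), which assembles an inflammasome on DNA, was at 3.71, 3.88 and 3.56 TPM in the Q111-C and at 5.37, 3.91 and 5.39 TPM in the Q111-T libraries. The treated libraries lay above the nontreated ones for both genes, narrowly so for Aim2.

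Among the regulators of transcription, Zic1 (chr9:91358058-91365810, minus strand) was at 8.74, 10.3 and 9.96 TPM in Q111-C and at 13.2, 10.5 and 10.7 TPM in Q111-T. Bnc1 (chr7:81966653-81992307, minus strand), a zinc finger transcription factor known from keratinocytes and germ cells, was at 4.79, 6.37 and 7.12 TPM in Q111-C and at 13.9, 10.2 and 15.4 TPM in Q111-T. Every treated library exceeded every nontreated one for Bnc1, and for Zic1 the gap was small. Tcfl5 (chr2:180621956-180642708), a basic helix-loop-helix factor known from the testis, had overlapping groups at 4.92 ± 0.828 TPM in Q111-C and 4.39 ± 0.494 TPM in Q111-T (mean ± SD, n = 3, here and below). The zinc finger genes Zfp984 and Zfp182 also had overlapping groups, Zfp984 (chr4:147753974-147809788) at 4.48 ± 1.19 and 4.82 ± 0.556 TPM. Zfp182 (chrX:21028939-21062316) was at 3.48 ± 0.443 and 3.99 ± 1.09 TPM. Rbpms (chr8:33782643-33929863), which encodes an RNA-binding protein, was at 2.36, 2.65 and 2.92 TPM in Q111-C and at 4.25, 5.62 and 3.46 TPM in Q111-T, without overlap.

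There were 5 receptor genes. Ptgfr (chr3:151796502-151837630, minus strand), the receptor for prostaglandin F2α, was at 5.72, 7.23 and 7.48 TPM in Q111-C and at 2.96, 2.17 and 3.35 TPM in Q111-T. S1pr3 (chr13:51408639-51422797), a receptor for sphingosine-1-phosphate, was at 6.92, 7.26 and 5.96 TPM in Q111-C and at 3.39, 2.54 and 3.56 TPM in Q111-T. All 3 treated libraries were lower than all nontreated ones for both of these receptors. Adgrg6 (chr10:14402583-14545179), an adhesion receptor needed for myelination by Schwann cells, overlapped between the groups at 6.34 ± 0.791 TPM in Q111-C and 4.94 ± 1.55 TPM in Q111-T. The netrin receptor gene Unc5c (chr3:141465216-141834924) was at 3.40 ± 0.366 and 4.64 ± 1.12 TPM. Calcrl (chr2:84330626-84425411), which forms receptors for calcitonin gene-related peptide and adrenomedullin, was the lowest of the group at 2.03 ± 0.438 and 2.76 ± 0.568 TPM, and its groups overlapped as well.

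Secreted and matrix proteins held the 2 highest levels in nontreated STHdhQ111 cells. Itih2 (chr2:10094593-10131075, minus strand), a heavy chain of the inter-alpha-trypsin inhibitors that bind hyaluronan, was at 14.5, 18.3 and 18.8 TPM in Q111-C and at 6.05, 4.44 and 7.88 TPM in Q111-T. In STHdhQ7 cells it was at 0 TPM in 5 libraries and at 0.153 TPM in Q7-C replicate 1. Acan (chr7:79053483-79115099, plus strand) was at 14.3, 14.0 and 15.0 TPM in Q111-C and at 2.52, 1.27 and 2.58 TPM in Q111-T. Both genes were lower in every treated library, Acan by the wider gap. Srpx2 (chrX:133908426-133932446), a secreted protein known from synapse formation, was at 7.78, 9.46 and 9.10 TPM in Q111-C and at 4.81, 4.29 and 3.67 TPM in Q111-T, again without overlap. Aplp1 (chr7:30434982-30445535), a membrane protein related to the amyloid precursor protein, was at 4.64 ± 0.112 TPM in Q111-C and 5.64 ± 0.723 TPM in Q111-T.

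There were 2 channel-related genes. Kcnk5 (chr14:20140057-20181809), a background potassium channel, was at 4.76 ± 0.345 TPM in Q111-C and 6.77 ± 1.56 TPM in Q111-T, and its groups overlapped. Kctd12b (chrX:153685154-153696391), of a family that holds auxiliary subunits of GABA-B receptors, was at 5.77, 5.82 and 5.11 TPM in Q111-C and at 3.32, 2.48 and 3.84 TPM in Q111-T, where every treated library was lower. Among the enzymes and carriers, Pctp (chr11:89982665-90002894), which carries phosphatidylcholine between membranes, was at 6.70, 8.52 and 8.06 TPM in Q111-C and at 4.49, 3.12 and 4.40 TPM in Q111-T. St6galnac2 (chr11:116675303-116694868), a sialyltransferase, was at 3.29 ± 0.20 and 2.14 ± 0.248 TPM, also lower in every treated library. A second row named St6galnac2 overlaps it on the same strand. That row averaged 0.736 TPM in Q111-C and 0.450 TPM in Q111-T, against 0.00938 TPM in Q7-C and 0.00312 TPM in Q7-T. Fam83g (chr11:61684091-61709951), which binds casein kinase 1, had overlapping groups at 4.68 ± 0.419 and 5.93 ± 1.38 TPM. The X-linked armadillo repeat gene Armcx6 (chrX:134748461-134751417) was at 2.97 ± 0.193 and 2.74 ± 0.476 TPM, with overlap.

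The remaining 3 genes are named by clone or model number only. 4930452B06Rik (chr14:8431192-8666240) was at 3.43, 3.58 and 4.12 TPM in Q111-C and at 6.35, 5.84 and 8.57 TPM in Q111-T, with the treated libraries higher. BC034090 (chr1:155212471-155244444) was at 4.18 ± 0.368 and 6.35 ± 2.11 TPM, with overlap. Gm20521 (chr14:54883441-54898137) was at 13.7 TPM in Q111-C replicate 1 and at 13.7 TPM in Q111-T replicate 1, and at 0 in the other 4 STHdhQ111 libraries. It lies on the same strand over Pabpn1 and Bcl2l2, which were expressed in all groups (means of 32.2 to 46.9 and 5.64 to 18.5 TPM), and its values are uncertain. It was too low in most libraries for the tests below, which cover the other 25 genes.

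The coefficient of variation of the 25 genes had a median of 10.0% in Q111-C and of 20.8% in Q111-T. Q111-T replicate 2 was the lowest of its group for 19 of the 25 genes and Q111-C replicate 1 for 17. The thresholds cut a continuous range of levels. Just inside the upper one were Calcrl, Acan and St6galnac2, whose lower STHdhQ111 group means were 2.03, 2.13 and 2.14 TPM, and just outside it were Kcna4 at 1.99, Rspo3 at 1.80 and Scn3a at 1.77 TPM. At the lower threshold, Rbpms, Adgrg6 and St6galnac2 were inside with higher STHdhQ7 group means of 0.0907, 0.0908 and 0.0921 TPM, and Pir at 0.105, Gm14296 at 0.110 and Shtn1 at 0.112 TPM were outside. The thresholds were met in every single library by 11 of the 26 genes, and without Q7-T replicate 2 the selection gave 29 genes.

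The effect of IFNγ and LPS within STHdhQ111 cells was tested in 2 fits, of all 12 libraries and of the 6 STHdhQ111 libraries alone. In the fit of all 12 libraries (edgeR quasi-likelihood test, Benjamini-Hochberg adjustment over 16127 genes), a gene was called at an adjusted p under 0.05 and an at least 2-fold change. Bnc1 rose (log2 fold change 1.20, SE 0.315, adjusted p = 0.020) and Acan fell (log2 fold change -2.69, SE 0.599, adjusted p = 0.00829). That is 1 of 25 genes higher (4%) and 1 lower (4%), where 8.28% of all genes tested were called higher and 2.96% lower. 4930452B06Rik had a log2 fold change of 0.99 and an adjusted p of 0.0313, just under the 2-fold limit. The selection required 2 TPM in both STHdhQ111 groups. A gene that treatment brought below this level, or raised from below it, could therefore not be among the 25. At an unadjusted p under 0.05 there were 6 of the 25 genes (24%), against 29.7% of all genes tested. Median log2 fold changes were 0.27 over the 25 genes and -0.005 over all genes tested. The call of Bnc1 was lost when 1 of 4 libraries was left out: without Q111-C replicate 1 (log2 fold change 1.04, adjusted p = 0.0979), without Q111-C replicate 2 (1.20, adjusted p = 0.0750), without Q111-T replicate 1 (1.17, adjusted p = 0.0663) and without Q111-T replicate 3 (1.09, adjusted p = 0.0815). It was also lost with limma on log2(TPM + 1), where the log2 fold change was 0.99 (adjusted p = 0.00237) and Cgas was the gene called higher. Without Q7-T replicate 2, Cgas and Ptgfr were called in addition to Bnc1 and Acan, which makes 8% of the 25 genes higher and 8% lower, where 8.98% of all genes tested were called higher and 3.49% lower in that fit. Over all 22 alternatives the adjusted p of Bnc1 ranged from 1.83e-05 to 0.0979, and that of Acan from 2.70e-06 to 0.0401, under each of which Acan was called.

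The near-0 libraries of the STHdhQ7 line entered the estimate of the spread of that fit. With only the 6 STHdhQ111 libraries in the fit, the median SE of the 25 genes was 0.166 instead of 0.583, and it was smaller for 25 of 25, while over all genes tested the median SE was 0.167 instead of 0.288. The fold changes themselves hardly moved. In this fit, Bnc1 and Cgas rose, and Acan, Itih2 and Ptgfr fell, that is 2 of 25 (8%) and 3 of 25 (12%), where 9.49% of all genes tested were called higher and 3.68% lower. Cgas had a log2 fold change of 1.33 (SE 0.124, adjusted p = 0.000119), against an SE of 0.456 and an adjusted p of 0.0671 with 12 libraries. Ptgfr had a log2 fold change of -1.18 (SE 0.15, adjusted p = 0.000640), against an adjusted p of 0.0769 with 12 libraries. For Itih2 the values were -1.40 (SE 0.175, adjusted p = 0.000571), against an SE of 0.801 and an adjusted p of 0.295 with 12 libraries. Without Q7-C replicate 1, the only STHdhQ7 library in which Itih2 had counts, its adjusted p was 0.00362 in the fit of the remaining 11 libraries. Cgas was also called when Q7-C replicate 1 or 2 or Q7-T replicate 1 or 2 was left out (adjusted p 0.0129 to 0.0487), and Ptgfr without Q7-C replicate 3 or Q7-T replicate 2 (adjusted p 0.0233 and 0.0243). Neither was called when any 1 of the 6 STHdhQ111 libraries was left out of the fit of all libraries (adjusted p 0.120 to 0.197 for Cgas and 0.120 to 0.189 for Ptgfr), nor with a replicate block (0.107 and 0.121), and Itih2 was not called in these settings either (0.351 to 0.479). Of the 22 alternatives, 12 did not call Cgas, 14 did not call Ptgfr and 17 did not call Itih2, whose adjusted p was 0.653 with DESeq2. At an adjusted p under 0.05, whatever the size of the change, 9 of the 25 genes were higher (36%) and 8 lower (32%) with 6 libraries, where 18.9% of all genes tested were higher and 15.1% lower. With 12 libraries there were 3 of the 25 (12%), in either direction, where the share of all genes tested was 18.7%.

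**Figure D3:**
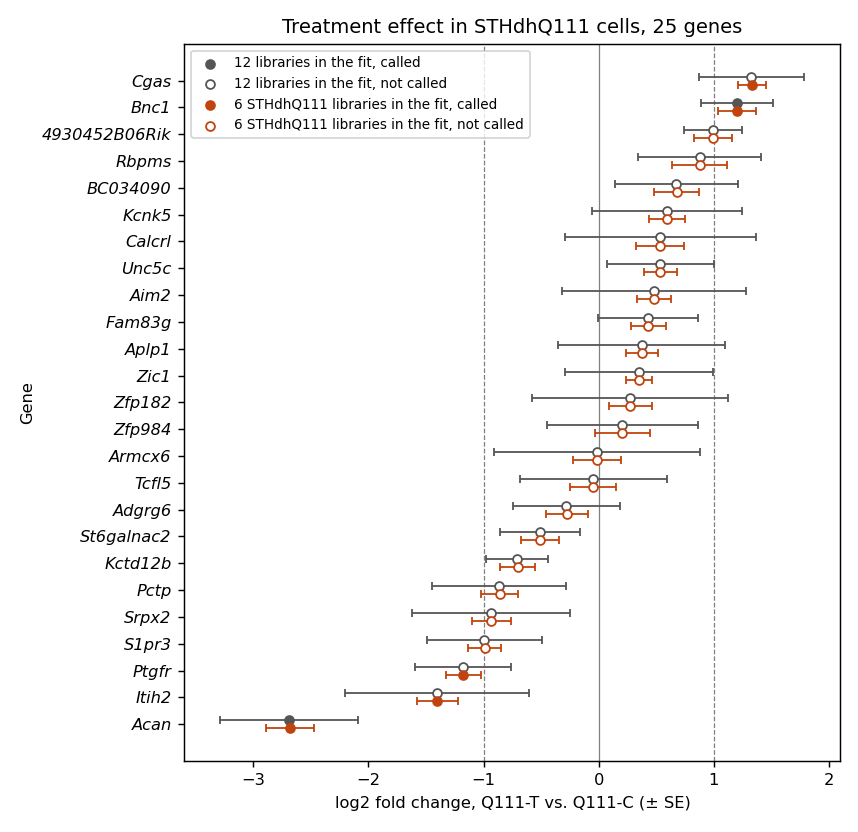
Log2 fold change of Q111-T vs. Q111-C with its SE for 25 genes, in the fit of all 12 libraries (grey) and in the fit of the 6 STHdhQ111 libraries (orange), with filled points for called genes and dashed lines at a 2-fold change. The estimates coincide, from -2.69 for Acan to 1.33 for Cgas, and the bars are shorter with 6 libraries.

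The levels were also compared library by library. The Q111-C and Q111-T libraries did not overlap in TPM for 15 of the 25 genes. Treated libraries were higher for 7 genes (28%; Cgas, Bnc1, 4930452B06Rik, Rbpms, Aim2, Aplp1 and Zic1) and lower for 8 (32%; Acan, Itih2, Ptgfr, S1pr3, Srpx2, Pctp, Kctd12b and St6galnac2). Over all genes tested, 19.8% were higher and 29.8% were lower without overlap. On this scale the median gene was 0.101 lower in Q111-T than in Q111-C in log2 units. With 3 libraries against 3, a two-sided exact permutation test cannot give a p under 0.1, which is the value for each of these 15 genes. Relative to the nontreated mean, the treated mean was 0.147 for Acan, 0.357 for Itih2 and 0.415 for Ptgfr, and 2.16 for Bnc1 and 2.37 for Cgas. A treatment effect in STHdhQ7 cells could not be measured at this depth, because both STHdhQ7 groups were near the floor.

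**Figure D4:**
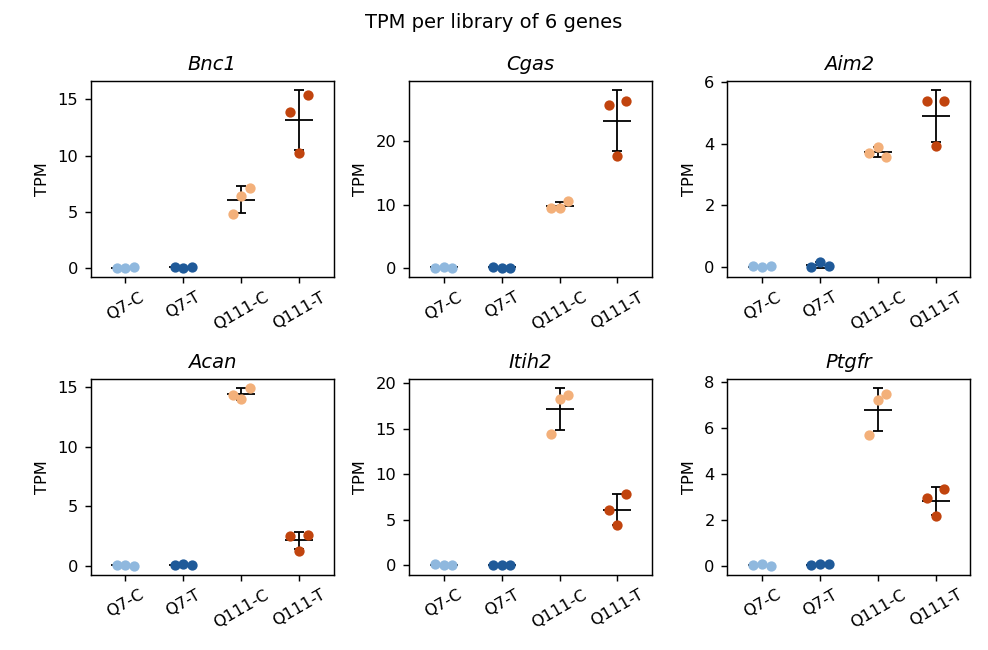
TPM of Bnc1, Cgas, Aim2, Acan, Itih2 and Ptgfr in each library of the 4 groups, with the mean and SD as bars (n = 3). The STHdhQ7 libraries lie at or near 0, the upper row shows genes with higher levels in Q111-T, from 17.7 to 26.4 TPM for Cgas, and the lower row genes with lower levels in Q111-T.

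The interferon and NF-kB programmes that IFNγ and LPS are known to induce were measured in the same fit. None of the 26 genes belongs to either list. The lists hold 40 and 25 genes and not every gene of these programmes. Absence from them does not place a gene outside the programmes. Of 39 interferon-response genes tested, 39 were called higher in Q111-T vs. Q111-C, with a median log2 fold change of 5.32, and 22 were also called higher in Q111-C vs. Q7-C. Of 23 NF-kB target genes tested, 18 were called higher in Q111-T vs. Q111-C, with a median of 3.95, and 4 were called higher and 1 lower in Q111-C vs. Q7-C. Of all genes tested, 7.62% were called higher and 7.61% lower between the nontreated lines.

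The genes around the 26 were not used in the selection and could be tested. Within 100 kb of one of the 26 genes lay 71 tested genes. Of these, 17 (23.9%) were called higher in Q111-C vs. Q7-C and 1 (1.41%) was called lower, against 7.62% and 7.61% of all genes tested. In treated cells, 19 (26.8%) were called higher and 2 (2.82%) lower in Q111-T vs. Q7-T, against 13.3% and 11.2% of all genes tested, and 14 genes were called higher in both comparisons. Without Q7-T replicate 2, 21 were called higher and 1 lower in treated cells, against 12.4% and 8.74% of all genes tested, and 16 were called higher in both comparisons. The share of all genes tested that was called higher in both comparisons was not calculated. Both comparisons hold the same line difference, so the 14 and 16 are given as counts only. A called-higher neighbour was found for 12 of the 23 genes that had a tested neighbour. The median log2 fold change of the neighbours was 0.27 in nontreated and 0.39 in treated cells, against -0.02 and -0.03 over all genes tested. Genes that overlap one of the 26 can share reads with it. Without these and without the neighbours of Gm20521, 13 of 60 (21.7%) were called higher in Q111-C vs. Q7-C. Within 50 kb the number was 14 of 47 (29.8%), and within 250 kb it was 26 of 180 (14.4%), with 10 (5.56%) called lower.

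The gene with the most called neighbours was Armcx6 on the X chromosome, and these are named here after their values were seen. Armcx3 was at 26.8, 30.02 and 31.7 TPM in the Q111-C libraries, against 2.22, 3.6 and 4.07 TPM in the Q7-C libraries (log2 fold change 2.87, SE 0.201, edgeR adjusted p = 1.79e-06). Armcx1, Armcx2, Armcx4 and Gm16397 were also called higher, Armcx2 at 56.1, 62.2 and 57.6 TPM in the Q111-C libraries, against 2.24, 4.04 and 4.35 TPM in the Q7-C libraries. Unlike Armcx6, Armcx1 to Armcx4 were expressed in STHdhQ7 cells too. Members of the Armcx family are similar in sequence, and how reads shared between them were assigned is not given in the sources used here. Without the neighbours of Armcx6, 12 of 66 neighbours (18.2%) were called higher. Beside Srpx2 lay Tspan6, a tetraspanin gene, at 19.1, 22.5 and 21.1 TPM in the Q111-C libraries, against 1.51, 1.25 and 0.698 TPM in the Q7-C libraries. On its other side, Sytl4, which binds Rab27 on secretory vesicles, was at 1.58, 1.71 and 1.69 TPM in the Q111-C libraries, against 0, 0.0313 and 0 TPM in the Q7-C libraries. In both, every Q111-C library was far above every Q7-C library.

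Further called neighbours ranged widely in level. Rhbdf2, an inactive rhomboid protein gene 48.3 kb from St6galnac2, was at 7.59, 10.8 and 9.42 TPM in the Q111-C libraries, against 0.0293, 0.251 and 0.113 TPM in the Q7-C libraries (log2 fold change 5.87, SE 0.591, edgeR adjusted p = 2.74e-05). Ifi44, an interferon-induced gene 46.5 kb from Ptgfr, was at 1.60, 2.71 and 4.21 TPM in the Q111-C libraries, against 0.0279, 0.342 and 0.355 TPM in the Q7-C libraries, and averaged 106 TPM in Q111-T against 4.15 TPM in Q7-T. Both were named after their values were seen, as were Mr1 and Tmem100. Mr1 averaged 0.656 TPM in the Q111-C and 0.0753 TPM in the Q7-C libraries, and Tmem100 averaged 1.09 and 0 TPM. Zic4, a relative of Zic1 that overlaps it on the opposite strand, was at 0 TPM in the 3 Q7-C libraries and at 0.632, 0.525 and 0.726 TPM in Q111-C. Zfp300, next to Zfp182, was at 0.469, 0.605 and 0.839 TPM in the Q111-C libraries, against 0, 0.0202 and 0 TPM in the Q7-C libraries. Nfkbid, an atypical inhibitor of NF-kB next to Aplp1, was at 2.73, 2.16 and 2.46 TPM in the Q111-C libraries, against 0.107, 0 and 0.207 TPM in the Q7-C libraries. These neighbours, too, were separated between the lines in every nontreated library. In treated cells, Mr1 and Tmem100 overlapped between the lines. Neither was called in Q111-T vs. Q7-T (log2 fold change 0.58 and -0.56, edgeR adjusted p = 0.497 and 0.749). Col9a3, which overlaps Tcfl5 on the opposite strand, was at 1.27, 0.943 and 0.707 TPM in the Q111-C libraries, against 0.357, 0.431 and 0.220 TPM in the Q7-C libraries. Gm20707, on the same strand as Zfp984 and overlapping it, and Slc22a17, next to Gm20521, were the other called genes among the nearest. Gsta2, 74.7 kb from Cgas, was the only neighbour called lower in Q111-C vs. Q7-C (log2 fold change -3.09, edgeR adjusted p = 0.0322), and is named as the exception. The number called lower was 0 without Q7-C replicate 1 or 2 or without Q111-C replicate 1 or 2.

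**Figure D5:**
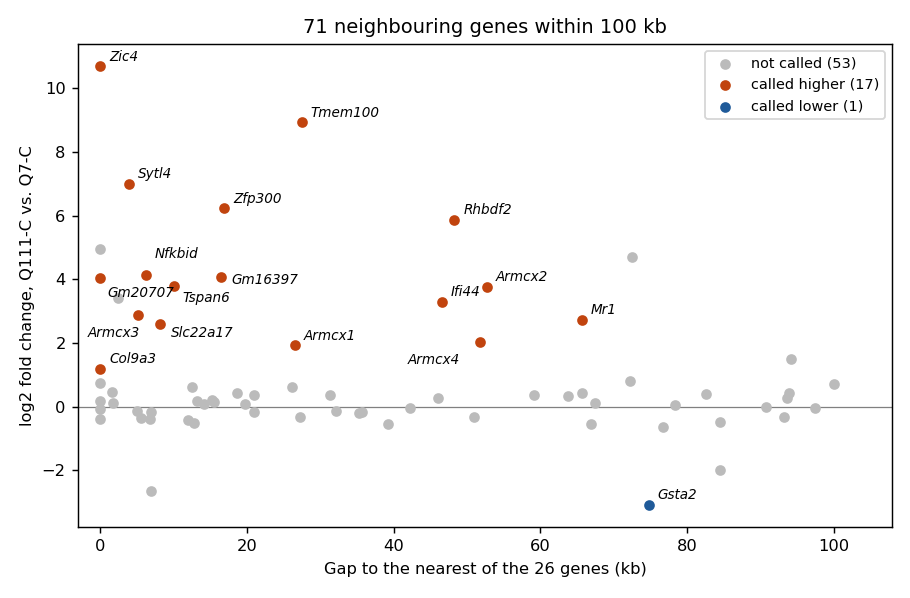
Log2 fold change in Q111-C vs. Q7-C of the 71 tested genes within 100 kb of one of the 26 genes, against the gap between the gene bodies in kb (0 where they overlap), with called genes coloured and named. Of the called genes, 17 lie above 0 and 1 below. The fitted values of Zic4 and Tmem100, which had 0 TPM in every Q7-C library, depend on the prior count of the fit.

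The 26 genes were spread over 12 chromosomes. The X chromosome held 4 of them (15.4%; Armcx6, Kctd12b, Srpx2 and Zfp182), against 3.16% of all genes tested and 4.15% of all genes called higher in Q111-C vs. Q7-C. The genes tested also include rows that are not protein-coding. Of 509 X-linked genes tested, 10% were called higher and 7.27% lower in this comparison. Of 10 sex-linked genes listed, only Xist could be tested. Xist was called lower in Q111-C vs. Q7-C (log2 fold change -1.03, edgeR adjusted p = 0.0411). Its libraries overlapped, at 26.3 ± 1.27 TPM in Q111-C and 45.4 ± 24.8 TPM in Q7-C. Only Srpx2 and Armcx6, 816 kb apart, lay within 1 Mb of each other.

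Factors that act on chromatin and genes that depend on it were examined as lists. Over all genes tested, 7.62% were called higher and 7.61% lower in Q111-C vs. Q7-C, which is the share to set each list against. Of 43 genes tested from the chromatin repressor list, 1 was called higher and 1 lower (2.33% each). This list also held Tet1, Tet2 and Tet3, which are not repressors. Dnmt3l, a cofactor of DNA methyltransferases, was called higher, at 0.235 ± 0.0793 TPM against 0.0120 ± 0.0208 TPM (n = 3). Tet1, which oxidizes methylated cytosine, was called lower, at 0.308 ± 0.0371 TPM against 0.858 ± 0.389 TPM (log2 fold change -1.73, adjusted p = 0.0185). This call of Tet1 was lost without Q7-C replicate 3 (adjusted p = 0.0739), without Q111-C replicate 1 (0.0733), 2 (0.0572) or 3 (0.0740), and with limma on log2(TPM + 0.5) (0.0924). Of 16 imprinted genes tested, which are controlled by DNA methylation, 6 (37.5%) were called higher and 3 (18.8%) lower. Mest, for example, averaged 17.0 TPM in Q111-C and 2.24 TPM in Q7-C, and Nnat 0.372 and 2.30 TPM. Of 128 developmental transcription factors other than Zic1, 24 (18.8%) were called higher and 35 (27.3%) lower in Q111-C vs. Q7-C. Zic1 was the only one of the 26 genes in any of the lists examined, which also covered markers of 10 cell types.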

How the data were processed

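The 12 libraries were assigned to groups from their labels, and all value columns matched a library. According to the study's methods and the submitters' processing notes, the authors trimmed reads with cutadapt, mapped them to GRCm38 with HISAT2 and quantified genes with StringTie after merging assembled transcripts. The authors deposited TPM values and estimated counts, the latter as whole numbers without normalization. How reads shared between genes were assigned is not given in the sources used here. All 26 genes were found in GENCODE M21, 23 of them with the same start and end. 10 of them overlap a row on the opposite strand and 4 a row on the same strand.

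The counts were tested with edgeR 4.0.16 in R 4.3.3 (TMM, quasi-likelihood test, 1 mean per group, all 12 libraries) over the 16127 genes that reached 0.5 TPM in 3 or more libraries, a filter that 25 of the 26 genes passed. Calls needed a Benjamini-Hochberg adjusted p under 0.05 and a 2-fold change. The SE given for edgeR fits was calculated back as the absolute log2 fold change over the square root of the F statistic. Distances were gaps between gene bodies. The procedure was tested on simulated data. Counts used pandas 2.3.3 and scipy 1.17.1, and plots matplotlib 3.10.9, under Python 3.11.15. Alternatives were DESeq2 1.42.0, limma 3.58.1 on log2(TPM + 0.5) with other pseudocounts, other normalization and filters, counts divided by 4, only STHdhQ111 libraries, a replicate block, each library left out, other distances and other thresholds of the selection. The thresholds and the type column were read so that a gene counts as protein-coding if any of its transcripts does.

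The 26 genes and the lists (interferon response, NF-kB targets, chromatin repressors, sex-linked genes, imprinted genes, developmental transcription factors, cell type markers) were chosen with earlier results of these data known. Genes were named by rule: the 10 with the highest level in STHdhQ111 cells, those called in the treatment comparison, those in a list, those within 1 Mb of each other, those next to a threshold, those above the floor in an STHdhQ7 library, and up to 10 of the nearest called neighbours. The remaining genes are given so that all 26 are accounted for. Depth limits the low side: 12 counts, taken as 3 read pairs, was the floor, and the reads carry no molecular identifiers.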

Additional observations from a re-analysis of the deposited data

How the results depend on the processing

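The number of treatment calls differed between settings. With DESeq2 or with counts divided by 4, 2 of the 25 genes were called higher (8%) and 2 lower (8%), where the shares of all genes tested were 8.92% and 3.61% with DESeq2 and 8.78% and 3.21% with counts divided by 4. With only STHdhQ111 libraries or limma on log2(TPM + 0.5) there were 2 higher and 3 lower (8% and 12%, against 9.49% and 3.68% of all genes, and 6.82% and 3.27% with limma). With limma on log2(TPM + 0.1) there were 2 higher and 5 lower (8% and 20%, against 7.19% and 3.93%), and with limma on log2(TPM + 1) 1 higher and 3 lower (4% and 12%, against 5.72% and 2.60%). When 1 library at a time was dropped, 0 to 2 were called higher (0% to 8%) and 1 to 2 lower (4% to 8%), against 6.83% to 8.98% and 2.49% to 3.49% of all genes. The treatment fold changes of 16 genes were followed under these alternatives and none of the 16 reversed, and those of the other genes were not followed. The replicate numbers share no stated culture or day and their deviations did not correlate throughout (-0.27 to 0.18), and the fit with a replicate block called 1 gene higher and 1 lower, and 15 neighbours higher.

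Of the neighbours, 26 were called higher and 10 lower within 250 kb, and 0 lower within 50 kb (edgeR, with 1 lower at an unadjusted p under 0.05, and 0 called with DESeq2 or limma). With each nontreated library left out, 14 to 16 were called higher and 0 to 1 lower. In the chromatin repressor list, DESeq2 called 2 higher, limma 2 higher and 0 lower, and leaving out libraries gave 1 to 2 higher and 0 to 1 lower. The cause of these shifts was not tested.

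The number of genes selected was 11 when every library had to meet the thresholds, 105 at 1 and 0.2 TPM, 0 at 5 and 0.05 TPM, 10 when protein_coding was the only type allowed, 20 after rescaling by the median of ratios, 28 with the name families kept and 23 to 29 with each library left out. Depth limits what can be said of STHdhQ7 cells, where most values stand for a few read pairs.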

Other observations

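The same TPM thresholds were met by 12 further rows. Hoxa4 and Hoxa5 were protein-coding genes of a name family set aside, with means of 3.54 and 2.97 TPM in Q111-C against 0.0836 and 0.0408 TPM in Q7-C. Hotairm1, an antisense RNA at the 3′ flank of the same Hoxa genes, averaged 2.54 TPM in Q111-C against 0.0345 TPM in Q7-C. Dnm3os, the antisense RNA from which microRNAs of the Dnm3 locus are made, was the highest of the 10 rows that are not protein-coding in Q111-C, at 9.63 TPM, and was at 4.17 TPM in Q111-T.

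The mirrored selection, at least 2 TPM in both STHdhQ7 groups and below 0.1 TPM in both STHdhQ111 groups, gave 10 genes, and 13 without Q7-T replicate 2. The 10 include the developmental transcription factors Sall1 (mean of 9.45 TPM in Q7-C against 0.0791 TPM in Q111-C), Nkx2-5 (6.72 and 0.0644 TPM), Dmrt3 (5.84 and 0.0375 TPM), Sox11 (4.69 and 0.0807 TPM), Tbx20 (4.6 and 0.0684 TPM) and Lhx1 (4.58 and 0.0140 TPM). Cyp1a1, a target of the aryl hydrocarbon receptor, was at 3.6 TPM in Q7-C and listed at 0 in all STHdhQ111 libraries. These genes were named after their values were seen.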
